A study of Mus musculus with 12 samples.

Results

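The unfolded protein response and the ATF4 stress response were followed through 36 genes, chosen by name and each read by its probe set of highest mean. These genes, and the lists of other pathway genes below, were chosen with earlier results of these data known. Shares set beside those of all genes are therefore descriptive and not an independent test. All 36 were found among the 19938 genes with a probe set of a single symbol, and all 36 were among the 13956 genes bright enough to be tested. The dimmest, Slc7a11, lay well inside the tested range. The genes fell into 19 endoplasmic reticulum (ER) chaperone, XBP1, ATF6 and degradation genes, 9 regulators and effectors of the ATF4 branch, and 8 amino acid and one-carbon genes. The samples were mouse embryonic fibroblasts, wild type (WT) or lacking the histone H3 lysine methyltransferase MLL1 (MLL1-KO, gene Kmt2a). Cells of both genotypes were grown with 5% fetal bovine and 5% newborn calf serum, shocked with 50% horse serum for 2 h, a treatment used to set circadian clocks in phase, and collected at CT18 or CT30, which are 18 h and 30 h after the shock. Each of the 4 groups had 3 arrays, 12 in all. The labels do not say how the knockout was made, how many cell lines were used, or whether replicates came from separate cultures. The p-values therefore reflect only how far these arrays differ from each other, and that variation may be technical.

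Unfolded proteins in the ER lumen activate the sensors IRE1, ATF6 and PERK. IRE1 splices Xbp1 mRNA, and XBP1 and cleaved ATF6 then raise transcription of chaperones, folding enzymes and the machinery of ER-associated degradation. PERK, together with kinases that sense amino acid shortage, haem shortage and double-stranded RNA, phosphorylates the initiation factor eIF2, which lowers general translation while ATF4 mRNA is translated more. ATF4 raises genes of amino acid synthesis and uptake, of tRNA charging and, with CHOP (gene Ddit3), of cell death. Both XBP1 splicing and ATF4 translation are controlled after transcription, so the mRNA levels given here do not measure the activity of either factor.

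The branches are read from different DNA elements, and promoter sequences are shown for the members that carry them. The ER stress element (ERSE), bound by ATF6 or XBP1 with NF-Y, was searched on both strands as CCAAT and CCACG with 9 bases of any kind between them. The window ran from 250 bases before to 50 after the transcription start in RefSeq sequences of build GRCm38.p6. Of 36 members, 33 had a promoter in that table. Hyou1, Manf and Slc7a5 had none. The element was in 39 of 32851 promoters (0.119%) and in 8 of the 17 ER members with a promoter, against 0 of 9 ATF4 regulators and 0 of 7 amino acid genes. Capitals mark the element or its reverse complement. Hspa5 is given with all 250 upstream bases and the others with 20 flanking bases on each side.
Hspa5, chr2:34771840-34772089, plus strand: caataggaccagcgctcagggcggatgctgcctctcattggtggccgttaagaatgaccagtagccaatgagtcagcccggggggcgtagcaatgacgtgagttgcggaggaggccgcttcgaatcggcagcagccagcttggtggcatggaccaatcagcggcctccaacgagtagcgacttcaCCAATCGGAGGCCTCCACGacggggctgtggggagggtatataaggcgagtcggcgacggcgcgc
Hsp90b1, chr10:86705513-86705676, minus strand: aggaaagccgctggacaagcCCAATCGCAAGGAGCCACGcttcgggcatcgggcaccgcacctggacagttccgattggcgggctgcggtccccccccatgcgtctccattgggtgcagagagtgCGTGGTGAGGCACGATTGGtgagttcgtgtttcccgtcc
Calr, chr8:84847055-84847113, minus strand: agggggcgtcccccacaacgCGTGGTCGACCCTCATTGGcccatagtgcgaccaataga
Canx, chr11:50325780-50325838, minus strand: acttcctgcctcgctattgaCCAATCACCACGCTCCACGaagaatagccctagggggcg
Pdia6, chr12:17266471-17266529, plus strand: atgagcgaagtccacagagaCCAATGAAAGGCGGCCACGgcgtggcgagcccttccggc
Dnajc3, chr14:118937807-118937865, plus strand: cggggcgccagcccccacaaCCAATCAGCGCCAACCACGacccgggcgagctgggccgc
Creld2, chr15:88819500-88819558, plus strand: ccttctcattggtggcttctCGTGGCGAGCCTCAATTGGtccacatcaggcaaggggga
Syvn1, chr19:6046512-6046570, plus strand: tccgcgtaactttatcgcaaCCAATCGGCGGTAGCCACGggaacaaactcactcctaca
Hspa5 had its element 65 to 47 bases before the start, and Hsp90b1 was the ER member with 2 matches, on opposite strands. The shorter ERSE-II, searched on both strands as ATTGG and CCACG with 1 base of any kind between them, was in 12 of 32851 promoters (0.0365%), of which 2 belonged to members, Herpud1 before the start and Dnajb11 after it.
Herpud1, chr8:94386357-94386407, plus strand: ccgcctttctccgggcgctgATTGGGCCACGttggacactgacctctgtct
Dnajb11, chr16:22857852-22857862, plus strand: ATTGGCCCACG

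The second element was the C/EBP-ATF response element (CARE), where ATF4 binds with a C/EBP partner, searched on both strands as TGATG and AA with 1 base of any kind between them. It was in 1304 of 32851 promoters (3.97%). It was in 4 of 9 ATF4 regulators, in 2 of 7 amino acid genes and, among 17 ER members, in Herpud1 alone. No CARE match overlapped an ERSE or ERSE-II match. Capitals mark the element or its reverse complement. Chac1 is given with 250 upstream bases, the others with up to 20 flanking bases, and Trib3, whose match lies after the start, with the match alone.
Chac1, chr2:119350992-119351241, plus strand: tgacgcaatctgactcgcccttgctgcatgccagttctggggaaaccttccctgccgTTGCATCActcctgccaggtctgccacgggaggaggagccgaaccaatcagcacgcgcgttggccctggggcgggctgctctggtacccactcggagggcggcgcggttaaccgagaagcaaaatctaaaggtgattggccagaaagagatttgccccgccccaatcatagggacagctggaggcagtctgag
Atf3, chr1:191183416-191183463, minus strand: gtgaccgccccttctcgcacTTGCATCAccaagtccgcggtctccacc
Trib3, chr2:152344039-152344046, minus strand: TTACATCA
Nupr1, chr7:126625553-126625600, minus strand: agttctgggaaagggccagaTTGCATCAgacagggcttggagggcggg
Asns, chr6:7693210-7693252, minus strand: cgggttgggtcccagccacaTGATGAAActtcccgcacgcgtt
Slc7a11, chr3:50443633-50443699, minus strand: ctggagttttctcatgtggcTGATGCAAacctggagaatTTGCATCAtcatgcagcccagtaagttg
Herpud1, chr8:94386297-94386344, plus strand: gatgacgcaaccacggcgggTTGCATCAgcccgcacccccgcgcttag
Slc7a11 had 2 matches on opposite strands. A match describes these letters in this window and is not evidence of binding, and a promoter without a match may be bound elsewhere.

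Arrays within a group correlated at 0.984 to 0.996 over the tested genes, and array median intensity ran from 273 to 312. Kmt2a read 2265, 2824 and 2099.7 in wild type and 2120.2, 2174 and 1959.7 in knockout at 18 h, and 2129, 2155 and 2069 in wild type and 1338, 1367 and 1584 in knockout at 30 h. Where its probes lie relative to the deleted part is not known here, so this does not check the labels. Fibroblast markers Vim, Col1a1 and Col1a2 were bright in every group and Lum was at background, and the sum over 10 fibroblast markers at 18 h was 44716 to 47422 in wild type and 41368 to 43461 in knockout. Of 9 tested, 3 were higher and 5 lower in knockout at 18 h and 4 higher and 5 lower at 30 h. Of all genes tested, 26.3% were higher and 33.8% lower at 18 h, and 24.3% and 28.6% at 30 h. Single fibroblast markers differed strongly in both directions, by log2 -3.22 to 3.74 at 18 h and -2.93 to 4.33 at 30 h, which the sum does not show. Neural markers moved with genotype, and 3 of 4 (Nes, Map2 and Tubb3) were higher in knockout at both times. The sum over the 4 was 574 to 707 and 613 to 805 in wild type at the 2 times against 5747 to 6349 and 5701 to 6664 in knockout. Markers of blood cells summed to 1875 to 1939 in wild type and 2093 to 3732 in knockout at 18 h, with Cd68 at 1315, 2635 and 2964 in knockout. Of the epithelial markers, 3 were tested and none passed at either time, and 0 of 4 endothelial markers were bright enough to be tested. No marker was at 0 on any array, and the part of these differences in the results that follow was not tested. In bulk RNA, a change in the share of cells and a change in RNA per cell cannot be told apart.

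For each gene, the highest and the lowest of 3 arrays lie outside the range of the others. The counts below therefore have a fixed sum in each group, and only their split between arrays is informative. The split over all genes tested was not computed. Knockout replicate 1 at 18 h lay outside the range of replicates 2 and 3 in 34 of 36 members, wild-type replicate 3 at 30 h in 33, wild-type replicate 3 at 18 h in 30 and knockout replicate 2 at 30 h in 28, and the other 8 arrays did so in 14 to 25. Over the 17 ATF4-branch and amino acid genes together, wild-type replicate 3 at 18 h was outside in 17, and in 16 it lay on the side of the wild-type mean at 30 h. Knockout replicate 1 at 18 h was outside in 17, in 14 of them on the side of the knockout mean at 30 h. At 30 h, replicate 2 of each genotype was outside in 15, in 14 of them on the side of its genotype's mean at 18 h. Counts or calls without single arrays are given for many, but not all, of the cases where leaving one out changes a call. The 5 comparisons described below share arrays, so their values are set side by side and are not independent of each other.

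**Figure D1:**
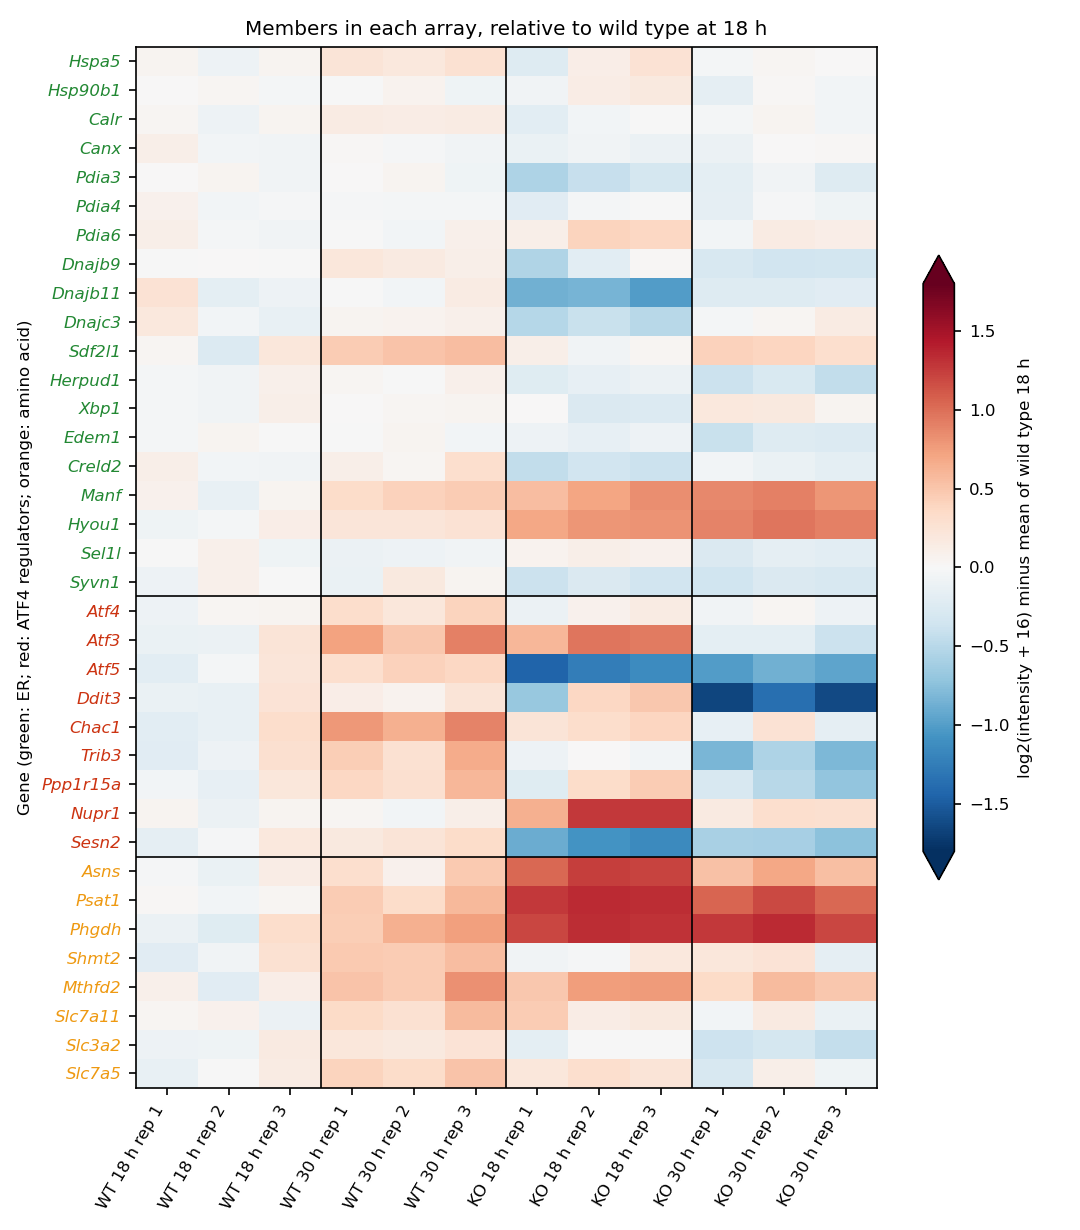
Heat map of log2(intensity + 16) for the 36 members (rows, green names for ER genes, red for ATF4 regulators and effectors, orange for amino acid and one-carbon genes) in the 12 arrays (columns), relative to the mean of wild type at 18 h; red is higher and blue lower. In the knockout columns at 30 h, 8 of 9 ATF4 regulators were lower than in wild type at 30 h, while Psat1, Phgdh and Asns were higher in knockout at both times.

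The genotypes differed at many genes, and the members are read against that. Here "called" means an adjusted p under 0.05 by limma over all genes tested, and differences are log2 of knockout over wild type unless stated. At 18 h, 60.1% of all genes tested were called, 26.3% higher in knockout and 33.8% lower, with a median difference of -0.030. Of the members, 11 were called higher and 7 lower, 18 of 36. At 30 h, 52.9% of all genes were called, 24.3% higher and 28.6% lower, with a median of 0.018, and 5 members were called higher and 20 lower. Of the members, 5 were higher at both times, 5 lower at both, 3 (Atf3, Chac1 and Slc7a5) were higher at 18 h and lower at 30 h, and 6 were called at neither time, all of them ER genes.

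The ER genes differed in both directions, mostly by small amounts. Of 19, 3 were higher (15.8%) and 5 lower (26.3%) in knockout at 18 h, with a median of -0.091. At 30 h 2 were higher (10.5%) and 8 lower (42.1%), with a median of -0.14. The shares of all genes were 26.3% higher and 33.8% lower at 18 h, both above those of the ER genes, and 24.3% and 28.6% at 30 h. Without knockout replicate 1 the count at 18 h was 5 higher and 6 lower. At 30 h, leaving out wild-type replicate 3 took the 8 lower genes to 4. Levels of the abundant chaperones Hspa5, Hsp90b1, Canx and Calr, and of Pdia4, were close in the genotypes. Pdia3, brighter than Pdia4, was lower in knockout at 18 h (mean 6208 against 8328 in wild type) and is described below. Hspa5, which encodes BiP, the main HSP70 chaperone of the ER and the protein that holds the sensors inactive, read 8575, 7765 and 8590.1 in wild type and 7057, 9062 and 9963 in knockout at 18 h. The groups overlapped, with knockout replicate 1 below every wild-type array (log2 0.052, SE 0.089, adjusted p = 0.652). Without that array Hspa5 was called higher (0.19). At 30 h Hspa5 read 9731, 9477 and 10063 in wild type and 8126, 8501 and 8305 in knockout, and each knockout array lay below each wild-type array (log2 -0.23, SE 0.089, adjusted p = 0.0385). That call was lost when any of the 6 arrays at 30 h was left out, with differences of -0.21 to -0.25. Hsp90b1, the ER HSP90 (differences 0.08 and -0.059), the lectin chaperone Canx (-0.091 and -0.0037) and the disulphide isomerase Pdia4 (-0.084 and -0.057) were called at neither time. Without knockout replicate 1, Hsp90b1 was called higher at 18 h (0.15, adjusted p = 0.0426). Calr, the soluble partner of Canx, differed by -0.083 at 18 h and was lower at 30 h (log2 -0.15, SE 0.055, adjusted p = 0.0279), a call lost without any of 5 of the 6 arrays at 30 h.

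Xbp1 mRNA was called at neither time. Xbp1 read 3010.2, 2926 and 3291 in wild type and 3089, 2562 and 2595 in knockout at 18 h, where replicate 1 of the knockout sat among the wild-type arrays and the other 2 sat below them (log2 -0.16, SE 0.077, adjusted p = 0.0749). Without replicate 1 it was called lower (-0.25). At 30 h it read 3101, 3154 and 3195 in wild type and 3518, 3459.9 and 3192 in knockout, with 2 knockout arrays above all of wild type and the third just below the highest (log2 0.10, SE 0.077, adjusted p = 0.274). One value per gene does not tell spliced from unspliced mRNA.

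Of the 3 ER members higher in knockout at 18 h, Hyou1 and Manf were higher at 30 h too. Hyou1, an HSP110-type nucleotide exchange factor for BiP, read 1148, 1176 and 1310.0 in wild type and 1974, 2119 and 2139 in knockout at 18 h, groups that did not overlap (log2 0.77, SE 0.071, adjusted p = 6.62e-08). It read 1408, 1412 and 1448 in wild type and 2249.8, 2375 and 2290.2 in knockout at 30 h, again without overlap (log2 0.69, SE 0.071, adjusted p = 3.48e-07), which is 1.71-fold and 1.61-fold higher. Manf, a secreted protein that also binds BiP, read 1256, 1087 and 1236 in wild type and 1756, 1967 and 2136 in knockout at 18 h, and 1504, 1592 and 1645 in wild type and 2187, 2254 and 2082 in knockout at 30 h. The Manf differences were 0.70 (SE 0.084, adjusted p = 1.57e-06) and 0.46 (adjusted p = 0.000204). Pdia6, a disulphide isomerase that also tempers IRE1, read 4114, 3756 and 3663 in wild type and 4142, 5095 and 4965 in knockout at 18 h (log2 0.30, SE 0.082, adjusted p = 0.0048). At 30 h Pdia6 read 3803, 3695 and 4078 in wild type and 3717, 4258 and 4161 in knockout and was not called (log2 0.066, adjusted p = 0.525).

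The lower ER members included 2 J-domain partners of BiP. Dnajb11, which recruits BiP to unfolded clients, read 2180.3, 1612 and 1698 in wild type and 988, 1006 and 894 in knockout at 18 h, with every knockout array below every wild-type array (log2 -0.91, SE 0.10, adjusted p = 6.13e-07), a 1.87-fold lower level. At 30 h it read 1807, 1746 and 2015 in wild type and 1538, 1549 and 1579 in knockout, and the difference had shrunk to -0.25 (adjusted p = 0.0453). That call was lost under each of 3 other scalings and with any of 5 of the 6 arrays at 30 h left out. Dnajc3, a J-domain protein that also restrains PERK, read 2193, 1851 and 1757 in wild type and 1346, 1459 and 1351 in knockout at 18 h (log2 -0.47, SE 0.084, adjusted p = 0.000119). By 30 h, at 1985, 2010.0 and 2053 in wild type and 1875, 1978 and 2141 in knockout, the genotypes of Dnajc3 overlapped (log2 -0.015, adjusted p = 0.898). Pdia3, the isomerase of the calnexin cycle, read 8360.2, 8627 and 7995 in wild type and 5658, 6252 and 6713 in knockout at 18 h (log2 -0.43, SE 0.065, adjusted p = 2.47e-05) and 8347, 8619.5 and 7926 in wild type and 7334, 7991 and 7104 in knockout at 30 h (log2 -0.15, adjusted p = 0.0621). At 30 h Pdia3 was called lower under each of 3 other scalings (-0.18 to -0.20).

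The 8 ER genes lower at 30 h included Herpud1, Syvn1 and Edem1 of the degradation arm. Dnajb9, a J protein that helps BiP hold IRE1 inactive, read 2598, 2538 and 2424 in wild type and 1844, 1782 and 1792 in knockout at 30 h, with no overlap (log2 -0.48, SE 0.10, adjusted p = 0.000782). It read 2257, 2270.4 and 2261 in wild type and 1549.8, 1981 and 2293 in knockout at 18 h (log2 -0.24, adjusted p = 0.0541). Dnajb9 was called lower at 18 h without knockout replicate 3 (-0.37) and with a filter at the 50th percentile. Herpud1, a ubiquitin-like scaffold of the degradation complex and the member with both an ERSE-II and a CARE match, read 2275, 2206 and 2365 in wild type and 1688, 1821 and 1629 in knockout at 30 h (log2 -0.41, SE 0.071, adjusted p = 0.000107) and 2156, 2122 and 2370.0 in wild type and 1909, 1997 and 2049.9 in knockout at 18 h (log2 -0.16, adjusted p = 0.0686). Syvn1, the ubiquitin ligase HRD1 of that complex, was lower at both times. It read 2109, 2387 and 2242 in wild type and 1707, 1863 and 1761 in knockout at 18 h, and 2068, 2546 and 2329 in wild type and 1746, 1874 and 1826 in knockout at 30 h (log2 -0.33, adjusted p = 0.00175, and -0.34, adjusted p = 0.00175). Edem1, a lectin-like degradation factor, was lower at 30 h (-0.29, adjusted p = 0.000693; -0.11 at 18 h, not called), and Sel1l, the partner of Syvn1, was called at neither time (0.083 and -0.12). Creld2, a secreted ER stress marker, was lower at both (-0.39 and -0.27), the second call lost without wild-type replicate 3 at 30 h (-0.19). Sdf2l1, a cofactor of BiP, was called at neither (0.025 and -0.14). Among the 8 members with an ERSE, 1 was higher and 3 lower at 18 h, and 0 higher and 4 lower at 30 h. Of all genes tested, 26.3% were higher and 33.8% lower at 18 h, and 24.3% and 28.6% at 30 h. The 4 at 30 h were Hspa5, Calr, Creld2 and Syvn1, and all but the Syvn1 call were lost without some single arrays.

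The ATF4 regulators and effectors were mixed at 18 h and almost all lower in knockout at 30 h. Of 9, 3 were higher and 2 lower at 18 h, with a median of 0.060, against 26.3% and 33.8% of all genes. Without knockout replicate 1 the count was 5 higher and 2 lower. At 30 h, 0 were higher and 8 lower, with a median of -0.92, against 24.3% higher and 28.6% lower among all genes. Nupr1, the remaining gene, differed by 0.22 at 30 h, which was called higher when knockout replicate 1 at 18 h was left out of the fit. Atf4 itself read 2543, 2790.0 and 2806 in wild type and 2526, 2866 and 3002 in knockout at 18 h, groups that overlapped (log2 0.042, SE 0.077, adjusted p = 0.673). Its 30 h values were 3366, 3125 and 3574 in wild type and 2588, 2768 and 2554 in knockout, with every knockout array lower (log2 -0.34, SE 0.077, adjusted p = 0.00116).

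CHOP had the largest 30 h difference among the members. Ddit3, which encodes it, read 1159, 1143 and 1492 in wild type and 779, 1628 and 1765 in knockout at 18 h. Knockout replicate 1 was the lowest of the 6 arrays and the other 2 the highest, and the group means were close (log2 0.06, SE 0.21, adjusted p = 0.836). Without replicate 1, Ddit3 was called higher at 18 h (0.43, adjusted p = 0.00491). At 30 h it read 1370.4, 1315 and 1476 in wild type and 389, 482 and 394 in knockout, a 3.22-fold lower level in knockout with a wide gap between the groups (log2 -1.69, SE 0.21, adjusted p = 4.01e-06). Trib3, a pseudokinase that binds AKT and is induced by ATF4 with CHOP, read 1033, 1117 and 1454 in wild type and 1113, 1198 and 1147 in knockout at 18 h (log2 -0.044, SE 0.12, adjusted p = 0.789). At 30 h Trib3 read 1615, 1435 and 1892 in wild type and 662, 807 and 669 in knockout, 2.28-fold lower and without overlap (log2 -1.19, SE 0.12, adjusted p = 4.03e-07). Ppp1r15a (GADD34), which brings a phosphatase to eIF2 and so ends the response, read 799, 749.9 and 957 in wild type and 711, 1047 and 1144 in knockout at 18 h (log2 0.19, adjusted p = 0.321) and 1079, 1022 and 1260.1 in wild type and 675, 584 and 504 in knockout at 30 h (log2 -0.92, SE 0.15, adjusted p = 8.2e-05). It too was called higher at 18 h without replicate 1 (0.39).

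Atf3 and Chac1 turned over between the times. Atf3, a bZIP repressor induced by many stresses, read 872, 877 and 1119 in wild type and 1450.5, 1864 and 1839 in knockout at 18 h, where all knockout arrays were higher (log2 0.84, SE 0.13, adjusted p = 2.16e-05). At 30 h the order was inverted, at 1573, 1337 and 1789 in wild type and 836, 841 and 719 in knockout (log2 -0.95, SE 0.13, adjusted p = 6.72e-06). Chac1, which degrades glutathione, read 1119, 1168 and 1597 in wild type and 1509, 1599 and 1679 in knockout at 18 h, and the groups overlapped (log2 0.31, SE 0.13, adjusted p = 0.0465). That call was lost without any one of wild-type replicates 1 and 2 and knockout replicates 2 and 3 at 18 h, with differences of 0.22 to 0.31. At 30 h Chac1 read 2197, 1994 and 2377 in wild type and 1147, 1535 and 1143 in knockout, all knockout arrays lower (log2 -0.78, SE 0.13, adjusted p = 7.51e-05).

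Atf5 and Sesn2 were lower in knockout at both times by similar amounts. Atf5, a bZIP factor translated like ATF4, read 773, 865 and 1029 in wild type and 316, 362 and 395 in knockout at 18 h, and 1088, 1178 and 1152 in wild type and 430.3, 476 and 448 in knockout at 30 h. The Atf5 differences were -1.27 (adjusted p = 1.89e-08) and -1.31 (adjusted p = 1.7e-08). Sesn2, a leucine sensor that restrains mTORC1, read 1461, 1609 and 1876 in wild type and 876, 766 and 734 in knockout at 18 h, and 1846, 1933 and 2064 in wild type and 1086, 1077 and 974 in knockout at 30 h. The Sesn2 differences were -1.04 (adjusted p = 7.91e-08) and -0.89 (adjusted p = 7.24e-07). In neither gene did the genotypes overlap at a given time. Nupr1, a small chromatin protein of the stress response, was high in knockout at 18 h. Its arrays read 1616, 1449 and 1620.4 in wild type and 2430.0, 3792 and 3789.9 in knockout at 18 h (log2 1.06, SE 0.13, adjusted p = 1.86e-06), with replicate 1 the lowest of the knockout arrays, and 1601, 1512 and 1686 in wild type and 1748, 1936 and 1904 in knockout at 30 h (log2 0.22, adjusted p = 0.171).

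**Figure D2:**
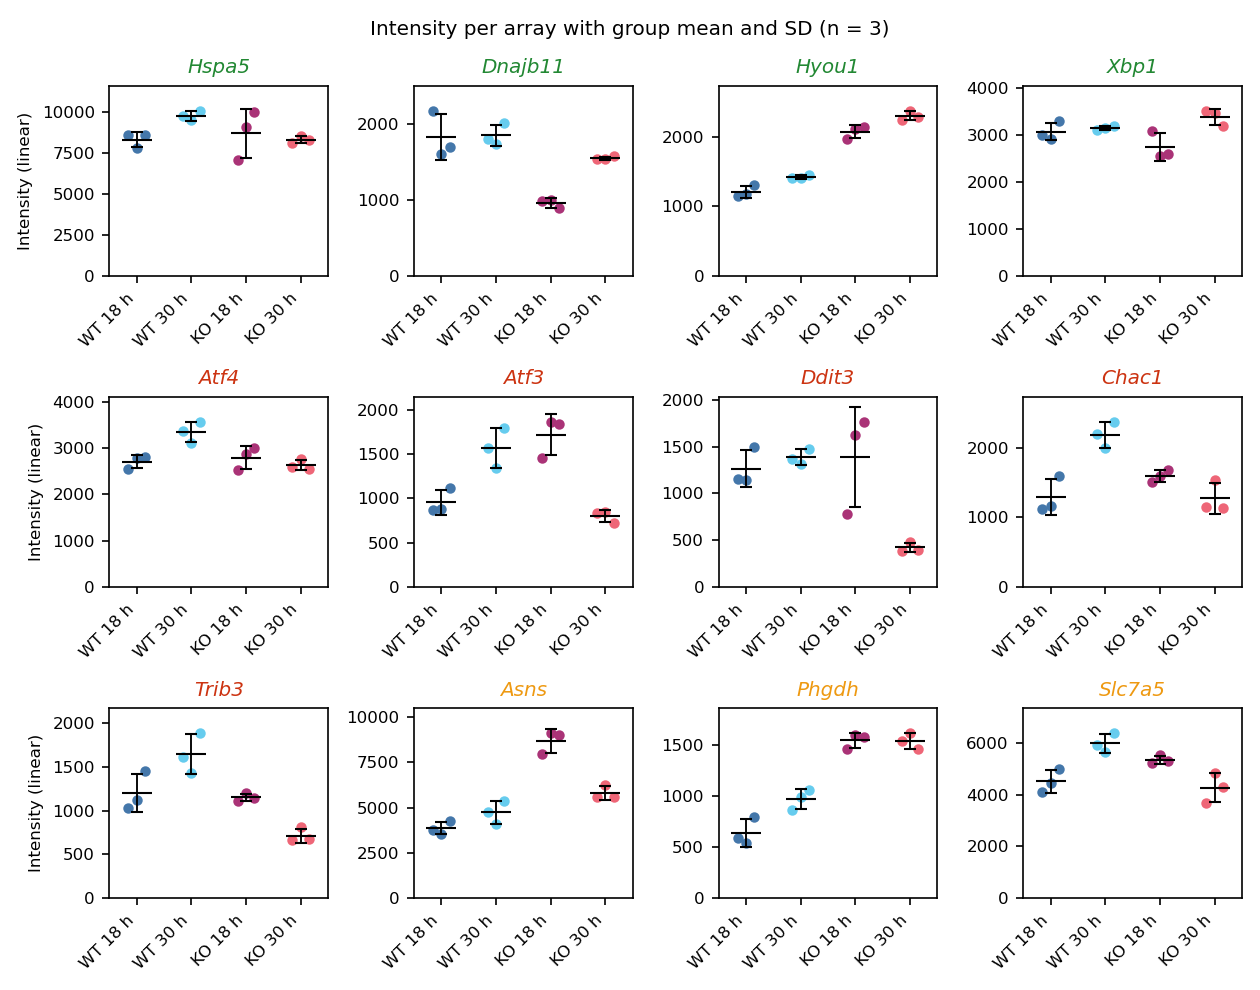
Linear intensity of 12 members in each array (points) with the group mean and SD (bars, n = 3), for wild type (WT) and knockout (KO) at 18 h and 30 h; each panel has its own scale from 0. Ddit3, Atf3, Trib3 and Chac1 were lowest or among the lowest in knockout at 30 h, Hyou1, Asns and Phgdh were higher in knockout at both times, and the wide bar of Ddit3 in knockout at 18 h comes from replicate 1 at 779.

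Most amino acid and one-carbon genes were higher in knockout at 18 h. Of 8, 5 were higher and 0 lower, with a median of 0.46, against 26.3% and 33.8% of all genes. At 30 h, 3 were higher and 4 lower, with a median of -0.26, against 24.3% and 28.6% of all genes. Those higher at both times were the serine and asparagine enzymes. Psat1, the aminotransferase of serine synthesis, read 2623, 2508 and 2651 in wild type and 6279, 6576 and 6541 in knockout at 18 h, and 3553, 3264 and 3877 in wild type and 5385, 5946 and 5333 in knockout at 30 h. The Psat1 differences were 1.31 (SE 0.068, adjusted p = 3.55e-11) and 0.64 (adjusted p = 4.79e-07). Phgdh, which catalyses the committed step of that pathway, read 585, 538 and 791 in wild type and 1462, 1598 and 1579 in knockout at 18 h, and 862, 986 and 1055 in wild type and 1543, 1621 and 1466 in knockout at 30 h. The Phgdh differences were 1.27 (adjusted p = 6.51e-08) and 0.67 (adjusted p = 0.000127). For both enzymes every knockout array was above every wild-type array at the same time. Asns, asparagine synthetase, read 3782, 3561 and 4246 in wild type and 7937, 9140.0 and 9009 in knockout at 18 h, 2.25-fold higher in knockout (log2 1.17, SE 0.093, adjusted p = 1.06e-08). At 30 h Asns read 4772, 4062 and 5370.2 in wild type and 5584, 6258 and 5604 in knockout (log2 0.30, SE 0.093, adjusted p = 0.0113), a smaller difference whose call was lost without replicate 2 of wild type (0.20) or of knockout (0.25).

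Of the mitochondrial folate enzymes and the transporters, Mthfd2 and Slc7a5 were higher at 18 h and none was higher at 30 h. Mthfd2, which oxidises methylene-tetrahydrofolate in mitochondria, read 1759, 1431 and 1795 in wild type and 2322, 2783 and 2837 in knockout at 18 h (log2 0.67, SE 0.11, adjusted p = 6.4e-05) and 2355, 2264 and 2942 in wild type and 2106, 2465 and 2321 in knockout at 30 h (log2 -0.13, adjusted p = 0.37). Shmt2, which splits serine to feed Mthfd2, read 2418, 2666 and 3377 in wild type and 2666, 2743 and 3184 in knockout at 18 h, and 3880.1, 3826 and 4102 in wild type and 3234, 3305 and 2489 in knockout at 30 h. It was not called at 18 h (0.032) and was lower at 30 h (log2 -0.40, SE 0.12, adjusted p = 0.0094), a call lost without knockout replicate 3 at 30 h (-0.27). Slc7a5 (LAT1), the importer of large neutral amino acids, read 4083, 4467 and 4983 in wild type and 5206, 5524 and 5289.8 in knockout at 18 h (log2 0.25, SE 0.089, adjusted p = 0.0244). This call was lost without wild-type replicate 1 (0.18) or 2 (0.24), or knockout replicate 2 (0.22). At 30 h Slc7a5 read 5916, 5662 and 6393 in wild type and 3691, 4844 and 4281 in knockout, now lower in knockout (log2 -0.49, SE 0.089, adjusted p = 0.000173). Slc3a2 (4F2hc), the heavy chain shared by Slc7a5 and Slc7a11, read 7403, 7427 and 8817 in wild type and 6919, 7854 and 7841 in knockout at 18 h, and 9082, 8844 and 9316 in wild type and 6058, 6333 and 5809.9 in knockout at 30 h. It was called at 30 h only (log2 -0.58, adjusted p = 2.11e-06; -0.062, adjusted p = 0.476 at 18 h). Slc7a11 (xCT), which exchanges cystine for glutamate, read 381, 394 and 343 in wild type and 515, 411 and 423 in knockout at 18 h (log2 0.26, adjusted p = 0.0583) and 475, 452 and 562 in wild type and 358, 416 and 341 in knockout at 30 h (log2 -0.40, SE 0.11, adjusted p = 0.00621). At 18 h it was called higher in knockout under each of 3 other scalings (0.32 to 0.34).

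Between 18 h and 30 h in wild type, few genes of any kind were called: 3.96% of all genes tested, 2.41% rising and 1.55% falling. Of the members, 11 of 36 rose and 0 fell. The split by role was 2 of 19 ER genes (Sdf2l1, 0.51, and Manf, 0.40), 4 of 9 ATF4 regulators and 5 of 8 amino acid genes. The ATF4 regulators that rose were Chac1 (log2 0.77, SE 0.13, adjusted p = 0.00447), Atf3 (log2 0.70, SE 0.13, adjusted p = 0.00608), Trib3 (0.46, adjusted p = 0.0499) and Atf4 (0.30, adjusted p = 0.037). The amino acid genes were Phgdh (0.60), Mthfd2 (0.59), Shmt2 (0.49), Psat1 (0.45) and Slc7a5 (0.41). All 9 ATF4 regulators and all 8 amino acid genes had a positive difference, with medians of 0.36 and 0.43, while the ER genes had a median of 0.040 and all genes one of -0.015. The Trib3 call, at the edge of the threshold, was lost under 6 other settings, quantile scaling and cyclic loess among them, and in 8 of the 12 fits that left out an array. The Atf4 and Slc7a5 calls were each lost without wild-type replicate 1 or 2 at 18 h or replicate 1 or 3 at 30 h. The Atf4 call was also lost without knockout replicate 2 at either time, and in a fit with no intensity trend. The count depended on single arrays, since the 11 became 4 without wild-type replicate 2 at 18 h or without replicate 3 at 30 h, 6 without replicate 1 at 18 h and 7 without replicate 1 at 30 h, and 16 without wild-type replicate 3 at 18 h or knockout replicate 1 at 18 h. The amino acid genes that rose went from 5 to 1 without wild-type replicate 2 at 18 h or replicate 3 at 30 h. With array medians set equal, 81.0% of all called genes rose, against 60.9% as deposited. The members' count was then 13, none falling.

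In knockout the same interval moved many more genes, 39.3% of all tested, 20.9% rising and 18.4% falling, and the roles parted. Of the 36 members 8 rose and 13 fell. Among 19 ER genes, 6 rose and 4 fell, with a median of 0.062. The largest rises were Dnajb11 (log2 0.68, SE 0.10, adjusted p = 5.94e-05), Dnajc3 (log2 0.52, SE 0.084, adjusted p = 0.000143) and Sdf2l1 (0.35), followed by Xbp1 (0.30), Creld2 (0.27) and Pdia3 (0.27). The 4 ER genes that fell, Sel1l, Pdia6, Herpud1 and Edem1, had differences of -0.29, -0.22, -0.21 and -0.18. Of these, the calls of Pdia6, Herpud1 and Edem1 were each lost without at least 2 of the single knockout arrays. Without knockout replicate 1 at 18 h, 6 ER genes rose and 7 fell, with Hsp90b1 (-0.22), Hspa5 (-0.19) and Dnajb9 (-0.24) added to those that fell. Among 9 ATF4 regulators, 2 rose and 5 fell, with a median of -0.69. Ddit3 fell 3.04-fold (log2 -1.60, SE 0.21, adjusted p = 2.71e-05) and Atf3 2.12-fold (log2 -1.08, SE 0.13, adjusted p = 8.57e-06), with Nupr1 at -0.81, Trib3 at -0.69 and Ppp1r15a at -0.69. Sesn2 (0.40) and Atf5 (0.33) rose. Without knockout replicate 1 at 18 h, 1 rose and 6 fell, since Atf5 (0.25, adjusted p = 0.0749) was no longer called and Chac1 (-0.37, adjusted p = 0.0491) was called as falling. Of 8 amino acid genes, 0 rose and 4 fell: Asns (-0.58), Slc7a5 (-0.33), Slc3a2 (-0.31) and Psat1 (-0.22).

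**Figure D3:**
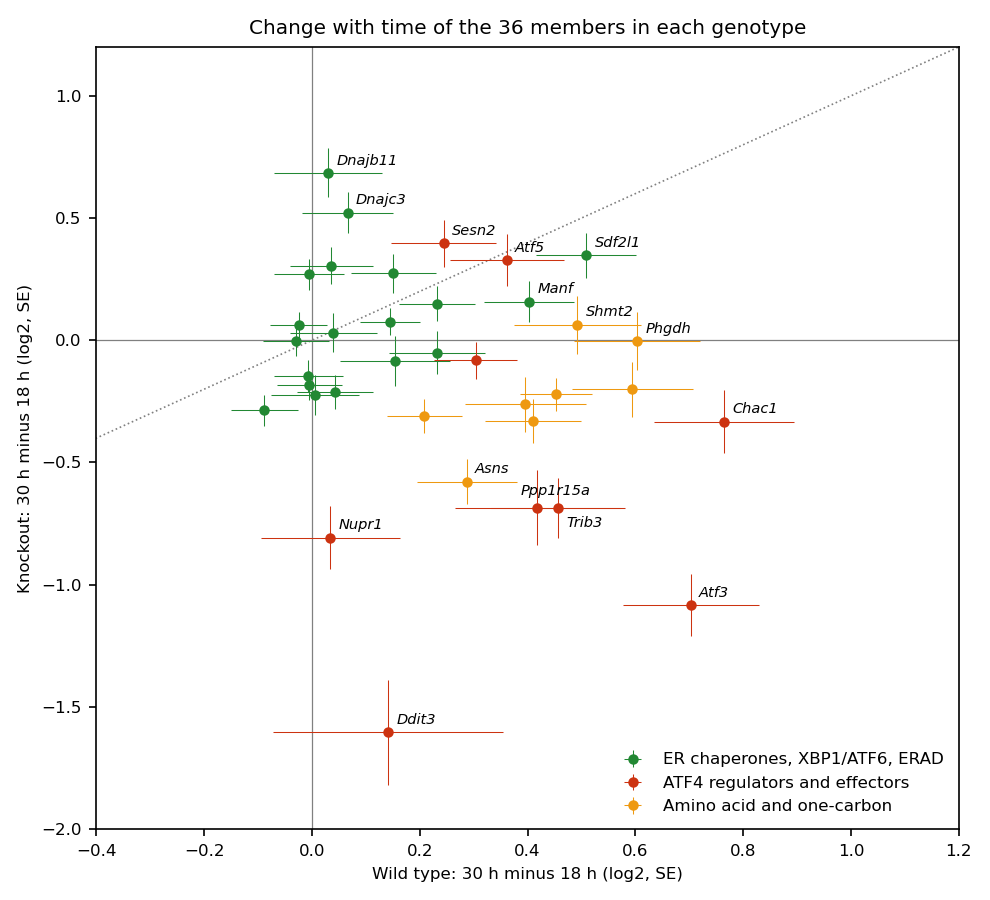
Change from 18 h to 30 h (log2, with SE) of each member in wild type (horizontal) and in knockout (vertical), coloured by role; the dotted line marks equal change. Points of 7 of 9 ATF4 regulators and 7 of 8 amino acid genes lie right of 0 and below 0, as do 4 of 19 ER genes, while Dnajb11 and Dnajc3 lie above the line.

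The difference of the time effects, knockout minus wild type, tests whether the genotypes changed unequally. It was called for 20.3% of all genes, 10.2% higher and 10.1% lower, and for 17 of 36 members. Of 9 ATF4 regulators 0 were higher and 7 lower, with a median of -1.098. Of 8 amino acid genes 0 were higher and 7 lower, with a median of -0.67. Of 19 ER genes 3 were higher and 0 lower, with a median of -0.082, and the median over all genes was 0.039. The lower ATF4 regulators were Atf3 (log2 -1.79, SE 0.18, adjusted p = 1.64e-05), Ddit3 (log2 -1.746, SE 0.30, adjusted p = 0.00104), Trib3 (log2 -1.14, SE 0.17, adjusted p = 0.000494), Ppp1r15a (-1.104), Chac1 (-1.098), Nupr1 (-0.84) and Atf4 (-0.39). Atf5 (-0.033) and Sesn2 (0.15), lower in knockout throughout, were the 2 not called. Every amino acid gene but Shmt2 (-0.43, adjusted p = 0.0821) was called, from Asns (log2 -0.87, SE 0.13, adjusted p = 0.000478) to Slc3a2 (-0.52). The 3 ER genes were Dnajb11 (log2 0.66, SE 0.14, adjusted p = 0.0044), Dnajc3 (0.46) and Pdia3 (0.27). The Pdia3 call was lost in 9 of the 12 fits that left out an array. It was also lost with no filter, with array medians set equal and with no intensity trend.

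The ATF4 and amino acid counts were the same without knockout replicate 1 at 18 h, and the ER count was not. Without knockout replicate 1 at 18 h, the difference of time effects was called lower for 7 of 9 ATF4 regulators, 7 of 8 amino acid genes and 5 of 19 ER genes, and higher for 3. The 5 were Hspa5 (-0.43), Dnajb9 (-0.39), Pdia6 (-0.32), Manf (-0.32) and Herpud1 (-0.28). The 3 higher were Dnajb11, Dnajc3 and Xbp1 (0.36), and Pdia3 (0.21) was no longer called. Without wild-type replicate 3 at 18 h, 7 of 9 ATF4 regulators, 8 of 8 amino acid genes and 1 of 19 ER genes were lower and 3 ER genes higher. Without wild-type replicate 1 at 18 h, wild-type replicate 3 at 30 h, or knockout replicate 2 or 3 at 18 h, the Atf4 call was lost (-0.33 to -0.37). The Phgdh call was lost without wild-type replicate 3 at 30 h (-0.54). Scaling changed the balance over all genes, since 50.3% of called genes were higher as deposited, 42.6% with quantile scaling, 37.4% with cyclic loess and 30.1% with array medians set equal. Under each of these 3 scalings the ATF4 regulators stayed at 0 higher and 7 lower and the amino acid genes at 0 and 7. The ER calls did not all stay. With array medians set equal, Pdia3 (0.18) was no longer called and Edem1 (-0.27) and Sel1l (-0.29) were called lower. With cyclic loess, Herpud1 (-0.29) was called lower.

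By promoter element, the 7 members with a CARE match had 0 higher and 6 lower in the difference of time effects, with a median of -0.87, against 10.2% and 10.1% of all genes, and the 8 with an ERSE had 1 higher and 0 lower, with a median of -0.039. The CARE match did not separate the ATF4-branch genes, since Atf4, Ddit3, Ppp1r15a, Psat1, Phgdh, Mthfd2 and Slc3a2 were called lower with no match in the window. Herpud1 was the CARE member not called.

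Other genes of the pathway, 134 found on the array and taken from lists by role, were read in the same way. The 16 aminoacyl-tRNA synthetases, which charge tRNAs and include ATF4 targets, differed mostly in one direction. Of these, 14 were higher and 0 lower in knockout at 18 h (median 0.48), against 26.3% and 33.8% of all genes. At 30 h 7 were higher and 1 lower (median 0.085), against 24.3% and 28.6%. Cars (log2 0.97, SE 0.077, adjusted p = 1.07e-08), Nars (0.76) and Qars (0.76) led at 18 h. At 30 h Qars (0.65), Cars (0.42) and Hars (0.37) were the highest and Eprs (-0.22) was the lower one. Over time 2 rose in wild type and 1 rose and 8 fell in knockout, where 20.9% of all genes rose and 18.4% fell. The difference of time effects was lower for 11 of 16 and higher for 0 (median -0.42), against 10.1% and 10.2% of all genes, from Yars (-0.68) and Tars (-0.62) to Iars (-0.36). With knockout replicate 1 at 18 h left out, 11 were lower and 1 higher.

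Other ATF4-linked genes, 34 tested, differed in both directions. Of these, 15 were higher and 11 lower at 18 h, against 26.3% and 33.8% of all genes, and 8 higher and 18 lower at 30 h, against 24.3% and 28.6%. Highest at 18 h were Vldlr, a lipoprotein receptor (log2 3.87, SE 0.11, adjusted p = 1.13e-14), Cth, which makes cysteine from cystathionine (3.14), and Stc2, a secreted stanniocalcin (1.17), which at 30 h differed by 4.07, 1.83 and 1.0995. Lowest at 18 h were the neutral amino acid transporters Slc38a2 (-1.20), Slc1a5 (-0.94) and Slc1a4 (-0.58). At 30 h they were Gadd45a, a growth arrest gene (-1.45), Slc1a5 (-1.39) and the glycine transporter Slc6a9 (-1.03). The difference of time effects was lower for 15 and higher for 1 (median -0.28), against 10.1% and 10.2% of all genes.

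The sensors and the rest of the ER machinery were mixed. Of 8 stress sensors and their proteases, 4 were higher and 2 lower at 18 h and 1 higher and 3 lower at 30 h. The shares of all genes were 26.3% higher and 33.8% lower at 18 h and 24.3% and 28.6% at 30 h. Atf6 was higher at 18 h (log2 0.64, SE 0.087, adjusted p = 6.43e-06), as were Creb3 (0.45) and Creb3l1 (0.45), membrane-bound relatives of ATF6. Creb3l2 was lower at both times (-0.53 and -0.71), as was Mbtps1, the site-1 protease that cleaves ATF6 (-0.46 and -0.28). Ern1, which encodes IRE1, was lower at 30 h (-0.77). Of 26 other ER folding genes, 6 were higher (23.1%) and 10 lower (38.5%) at 18 h, shares near those of all genes, and 4 were higher (15.4%) and 12 lower (46.2%) at 30 h. Highest were Pdia5 (0.95 at 18 h), the ER oxidase Ero1a (0.87 and 0.42), Creld1 (0.77 and 0.69) and, at 30 h, the collagen chaperone Serpinh1 (0.26). Lowest were Cnpy2 (-1.82 and -0.95) and the prolyl isomerases Fkbp14 (-1.59 and -1.20) and Fkbp7 (-1.47 and -1.42).

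Of 36 genes of ER-associated degradation and secretion, 9 were higher (25.0%) and 12 lower (33.3%) at 18 h and 7 higher (19.4%) and 12 lower (33.3%) at 30 h. These are near the shares of all genes, 26.3% and 33.8% at 18 h and 24.3% and 28.6% at 30 h. Higher were Wfs1, an ER membrane glycoprotein (1.06 at 18 h), Sec24d of the COPII coat (0.58 at 18 h), the KDEL receptor Kdelr1 (0.45 and 0.49) and, at 30 h, the signal peptidase subunits Spcs2 (0.45) and Spcs3 (0.41). Lower were Selenok (-1.001 at 18 h), the lectin Os9 (-0.68 and -0.70), Sec62 of the translocon (-0.54 at 18 h) and, at 30 h, Derl1 (-0.61) and Ube2g2 (-0.57). Among 11 genes of eIF2 phosphorylation and its exchange factor eIF2B, 2 were higher (18.2%) and 5 lower (45.5%) at 18 h and 3 higher and 3 lower (27.3% each) at 30 h. The eIF2B subunits Eif2b2 (0.67 and 0.52) and Eif2b3 (0.24 and 0.31) were higher at both times, and Eif2b4 at 30 h (0.40). Eif2ak2, the double-stranded RNA kinase PKR, was the lowest, at 5044, 5526 and 4746 in wild type and 1105, 820.1 and 815 in knockout at 18 h (log2 -2.47, SE 0.11, adjusted p = 3.67e-12), and -2.15 on the log2 scale at 30 h. Impact, an inhibitor of the amino acid sensing kinase GCN2 (-1.43 and -1.003), and Ppp1r15b, the constitutive partner of the eIF2 phosphatase (-1.21 and -1.22), were lower at both times. In the difference of time effects, 10.2% of all genes tested were higher and 10.1% lower. The 8 sensors had 0 higher and 3 lower (37.5%), and the 26 other folding genes 2 (7.69%) and 5 (19.2%). Degradation and secretion had 2 (5.56%) and 4 (11.1%) of 36, and the eIF2 group 3 (27.3%) and 0 of 11.

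**Figure D4:**
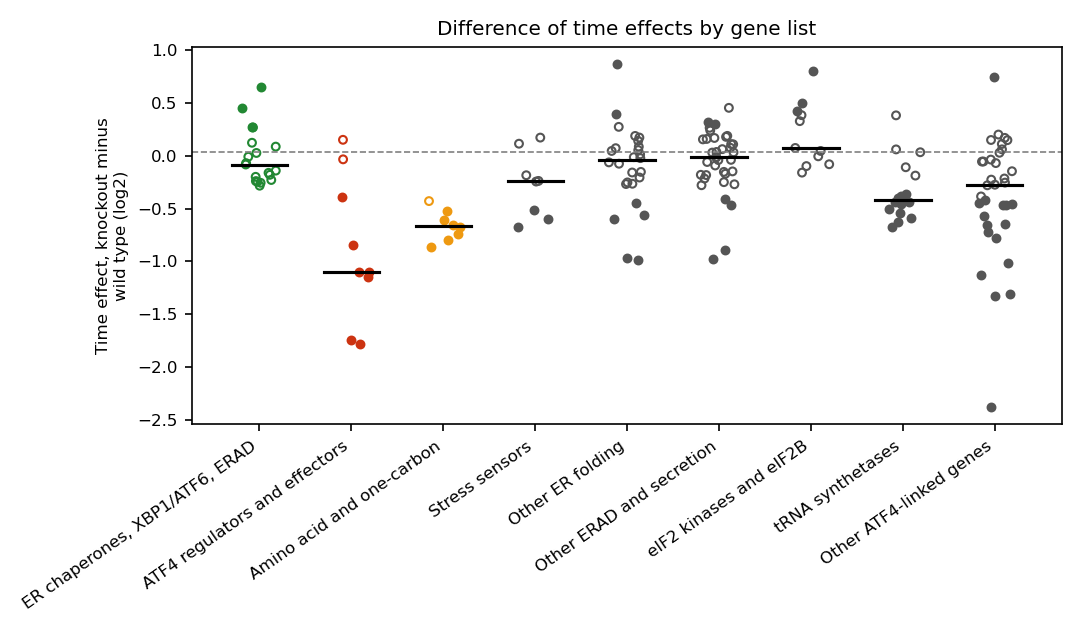
Difference of time effects (log2, knockout minus wild type) of each tested gene in the 3 member groups (coloured) and 6 lists of other pathway genes (grey); filled points were called, black bars are list medians and the dashed line is the median of all genes, 0.039. The ATF4 regulators (median -1.098), amino acid genes (-0.67) and tRNA synthetases (-0.42) lie mostly below the line, and the ER members (-0.082) lie on both sides of it.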

How the data were processed

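Total RNA from the 12 samples was hybridised to Affymetrix whole-transcript arrays. The deposited table holds 1 linear intensity for each probe set and array. The submitters' processing notes name Affymetrix Expression Console 1.1 and PLIER 2.0, and how arrays were normalized to each other is not stated in the sources used here. Symbols came from the platform annotation, updated by Entrez number to RefSeq.

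Each gene was taken as its probe set of highest mean. Values were set to log2(intensity + 16), which understates changes of dim genes, and genes with a mean under the 30th percentile (intensity about 175) were left out. Group means were fitted with limma 3.58.1 in R 4.3.3 (lmFit, eBayes with intensity trend) over all 12 arrays, with Benjamini-Hochberg adjustment over 13956 genes; tests are two-sided and SE is limma's moderated standard error. The number of arrays limits the precision. The fit was tested on simulated data.

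Values per array are given for Atf4, Xbp1, Hspa5 and Ddit3, for the called members of each role with the 3 highest and 3 lowest genotype differences at either time, and for members called in the difference of time effects; up to 3 rises and 3 falls per pathway list and time are named. The members and lists were chosen with earlier results of these data known. Alternatives covered the offset, filter, scaling, probe set rule, variance model, samples fitted, replicate block and each array left out.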

Additional observations from a re-analysis of the deposited data

Results flagged for a closer look

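For 17 members the change from 18 h to 30 h differed between the genotypes by limma's test of the difference itself, adjusted over all genes tested. The values, on the log2 scale as knockout minus wild type, were lower for 14. Among ATF4 regulators and effectors these were Atf3 (-1.79, adjusted p = 1.64e-05), Ddit3 (-1.746, adjusted p = 0.00104), Trib3 (-1.14, adjusted p = 0.000494), Ppp1r15a (-1.104, adjusted p = 0.00241), Chac1 (-1.098, adjusted p = 0.000922), Nupr1 (-0.84, adjusted p = 0.00442) and Atf4 (-0.39, adjusted p = 0.0197). Ddit3 and Nupr1 changed little in wild type (0.14 and 0.034, not called) and fell in knockout. Atf3 and Trib3 rose in wild type and fell in knockout. The rise of Trib3 was lost under 6 other settings and in 8 of the 12 fits without 1 array. Chac1 and Atf4 rose in wild type with differences in knockout that were not called (-0.33 and -0.082), though the fall of Chac1 was called under 7 alternatives. The rise of Atf4 was lost without wild-type replicate 1 or 2 at 18 h or replicate 1 or 3 at 30 h. It was also lost without knockout replicate 2 at either time, and with no intensity trend. For Atf4 the difference of time effects was lost without wild-type replicate 1 or knockout replicate 2 or 3 at 18 h. Leaving out wild-type replicate 3 at 30 h lost that call too.

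Among amino acid and one-carbon genes the values were Asns (-0.87, adjusted p = 0.000478), Mthfd2 (-0.79, adjusted p = 0.00262), Slc7a5 (-0.74, adjusted p = 0.00097), Psat1 (-0.67, adjusted p = 0.000297), Slc7a11 (-0.66, adjusted p = 0.00851), Phgdh (-0.61, adjusted p = 0.0166) and Slc3a2 (-0.52, adjusted p = 0.00187). Psat1 and Slc7a5 rose in wild type and fell in knockout. Asns and Slc3a2 fell in knockout without a called rise in wild type, and Phgdh and Mthfd2 rose in wild type without a called fall in knockout. The rise of Slc7a5 was lost without wild-type replicate 1 or 2 at 18 h or replicate 1 or 3 at 30 h. The rises of Phgdh and Mthfd2 were lost without wild-type replicate 2 at 18 h or 3 at 30 h, and that of Phgdh also without replicate 1 at 18 h. For Phgdh the difference of time effects was no longer called without wild-type replicate 3 at 30 h (-0.54). The fall of Psat1 was lost without knockout replicate 2 at 18 h or replicate 1 or 3 at 30 h. For Slc7a11 neither time effect was called by itself (0.40 in wild type and -0.26 in knockout), but the rise in wild type was called under 5 alternatives and the fall in knockout under 1.

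The 3 members with a higher value were ER genes, Dnajb11 (0.66, adjusted p = 0.0044), Dnajc3 (0.46, adjusted p = 0.013) and Pdia3 (0.27, adjusted p = 0.0448), all of which rose in knockout and were not called in wild type. The Pdia3 difference was lost in most fits that left out an array. It was also lost with no filter, with array medians set equal and with no intensity trend.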

How the results depend on the processing

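The number of members called was 18 of 36 for genotype at 18 h (16 to 23 over the alternatives), 25 at 30 h (21 to 27), 21 for time in knockout (17 to 24) and 17 for the difference of time effects (14 to 22), each within 1.5 times the reported count. For time in wild type it was 11, and leaving out 1 array gave 4 to 16; the other settings gave 8 to 15. Over 180 pairs of member and comparison, 57 changed call under some alternative and none changed direction while called; of 92 called, 24 were lost under at least 1 alternative. The replicate number as a block gave 18, 24, 12, 22 and 17 called members for genotype at 18 h and 30 h, time in wild type, time in knockout and the difference. Deviations of same-numbered arrays correlated from -0.456 to 0.454, and arrays correlated best with their own number in 12 of 36 cases. Replicate 2 of wild type at 18 h, wild type at 30 h and knockout at 30 h correlated with each other at 0.330 to 0.454. Replicate 2 of knockout at 18 h correlated with them at -0.0078 to 0.081. Whether same-numbered arrays shared a culture or batch is not known from the labels, and these correlations do not decide it. Precision is limited by 3 arrays per group, and the normalization between arrays is not stated in the sources.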

Other observations

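Among the members, Dnajc3 and Pdia4 had more than 1 probe set. The 2 probe sets of Dnajc3 held the same values. The second probe set of Pdia4 was dimmer (mean log2 8.49 against 12.58) and its genotype differences, 0.33 at 18 h and 0.28 at 30 h, had the opposite sign to those of the probe set used (-0.084 and -0.057), which were not called.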
